A study of Mus musculus with 8 samples.

Results

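Bone morphogenetic protein (BMP) signaling was examined in mouse embryonic stem cells (mESCs) through 10 genes out of the 19429 listed in the deposited expression table. They were taken as the rows whose gene name equals Bmp4 (the ligand), Bmpr1a (a type I receptor), Smad6 and Bambi (inhibitors), or Id1, Id2, Id3, Id4, Msx1 and Msx2 (target genes), and each name matched 1 row. RNA-seq was performed on lines of LF2, an mESC line grown with leukemia inhibitory factor and 10% fetal bovine serum. Wild-type lines (WT, lines 2 and 5) were compared in the study with lines carrying alanine in place of an aspartate near the TET1 C-terminus on both alleles (D2018A, lines 7 and 8), a change that weakens TET1 binding to the O-GlcNAc transferase OGT. From every line 2 technical replicates were described, or 4 libraries per genotype, and all lines carry a C-terminal FLAG tag on TET1. All lines were clonal, a 2A sequence and a fluorescent protein followed the tag, and the study describes a deletion distal to the Cas9 target site in its WT cells and not in its D2018A cells.

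BMP ligands bind a complex of type I and type II receptor kinases, which phosphorylate SMAD1, SMAD5 and SMAD9. These join SMAD4 in the nucleus and turn on a small set of direct targets, of which the Id genes are the best known. ID proteins have a helix-loop-helix but no DNA-binding region, and hold E proteins away from DNA. SMAD6 and the pseudoreceptor BAMBI are themselves induced by the pathway and dampen it. In mESC culture, BMP4 or serum acts with leukemia inhibitory factor to maintain self-renewal, and ID proteins take part in this effect.

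The values described here are the authors' mean normalized counts, 1 per gene, pooled over the libraries of their fit. No value per library or per genotype was available for use, and the remaining value columns hold the authors' own comparison of the genotypes, so whether these genes differ between WT and D2018A was not analysed here. The smallest means fell on 12 steps, each shared by 38 to 123 genes, as single reads in single libraries would give. Read as 1 step per library, that is 4 more than the 8 libraries described, and which libraries the others are is not given in the sources used here. With 50 genes required per step in place of 30, 5 steps remained. Relative depth (the size factor of a step) ran from 0.726 to 1.47, and 1 read was worth 0.0565 to 0.115 in the mean. These limits bound the reads behind a mean and the largest counting SD it can have. Counting SDs are given as such. They hold no spread between lines or replicates, and no n can be given for a pooled mean. In bulk RNA fewer cells expressing a gene and less RNA per cell cannot be told apart.

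The pluripotency label was checked against marker genes. All 10 embryonic stem cell markers (such as Pou5f1, Nanog and Esrrb) had means of at least 977, and the highest was 23079. Of 10 fibroblast markers 7 were listed, with means from 0.0930 to 194. The collagen genes Col3a1 and Col1a2 were at 0.0930 and 0.689, Col1a1 was at 115 and Thy1 at 194. To set genes of different length side by side, each mean was divided by the union of the gene's exons and scaled to a sum of 1000000 over all genes (the length-scaled level). Summed on that scale, the fibroblast list came to 30.3 against 5048 for the stem cell list. Cdx2 and Elf5, which define trophoblast, were at 1.49 and 1.13, while Eomes in the same list was at 199. Tfap2c, also in that list, was at 1694. The 6 primitive endoderm markers ran from 10.2 for Sox17 to 331 for Sox7, and the 6 neural markers from 0.615 for Neurog2 to 1736 for Tubb3. Summed levels per length were 167 for trophoblast, 43.5 for primitive endoderm and 308 for neural markers. The part of other cell types in the levels of the BMP genes was not tested.

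Sequence before the RefSeq start is shown first for 4 of the genes, because it shows how far the genes differ there. RefSeq promoter windows on GRCm38.p6, from 250 bases before to 50 after the start, matched 8 of the 10 genes. Id1 and Bambi had no match. The windows were searched on both strands for GGCGCC, a GC-rich sequence that BMP-activated SMADs can bind, for the general SMAD core GTCT, for CAGCC and for the TATA box letters TATAAA. Capitals mark GGCGCC, and only bases before the start and outside every GENCODE exon of the gene are printed, 5′ to 3′ on the strand of the gene. Bmp4 (chr14:46390670-46390919, minus strand), without a match to GGCGCC, is shown as the gene with the highest level. Id4 (chr13:48260866-48261115, plus strand), Bmpr1a (chr14:34502688-34502796, minus strand) and Id2 (chr12:25096254-25096342, minus strand) are the genes with a match. The stretches of Bmpr1a and Id2 lie between annotated exons, inside GENCODE spans that begin further upstream, at 34503341 and 25097140. They are thus upstream of the RefSeq start only.
Bmp4: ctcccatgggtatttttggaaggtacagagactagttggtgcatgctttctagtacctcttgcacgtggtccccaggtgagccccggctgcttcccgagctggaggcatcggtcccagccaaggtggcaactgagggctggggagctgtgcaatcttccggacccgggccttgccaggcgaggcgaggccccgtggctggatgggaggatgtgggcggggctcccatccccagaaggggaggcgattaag
Id4: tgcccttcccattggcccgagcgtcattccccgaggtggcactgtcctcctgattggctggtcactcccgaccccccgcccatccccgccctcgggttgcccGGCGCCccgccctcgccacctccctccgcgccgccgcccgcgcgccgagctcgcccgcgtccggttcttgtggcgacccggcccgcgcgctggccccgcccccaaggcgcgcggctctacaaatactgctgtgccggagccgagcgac
Bmpr1a: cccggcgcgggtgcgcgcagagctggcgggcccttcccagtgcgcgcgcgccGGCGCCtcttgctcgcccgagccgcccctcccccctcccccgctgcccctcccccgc
Id2: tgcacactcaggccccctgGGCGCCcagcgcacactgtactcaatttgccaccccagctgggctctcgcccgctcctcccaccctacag

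GGCGCC lay at position -148 in Id4, -198 in Bmpr1a and -231 in Id2, counted from the RefSeq start at 0. The windows of Bmp4, Id3, Smad6, Msx1 and Msx2 held none. It was thus present in 3 of 8 windows, against 11.9% of all 32851 windows and 21.3% of windows of those protein-coding genes whose mean reached 10. With so few windows this is a count and no more. GTCT was present in 6 of 8 windows and in 88.0% of all windows, or 85.3% of windows of the expressed protein-coding genes (mean of 10 or more). It was found 3 times in Id3 and not in Id4 or Msx1. In the windows of Id3 and Msx2 every base before the RefSeq start lies in a GENCODE exon of the gene. All matches in these windows are therefore in exon sequence. CAGCC was present in all 8 and in 68.8% of all windows, or 77.1% of those of expressed genes. TATAAA was in none of the 8, against 13.6% of all windows and 6.61% of those of expressed genes. A match is a run of letters and not a bound site.

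Most of the windows were rich in CpG, the dinucleotide that TET enzymes act on once it is methylated. The ratio of observed to expected CpG was highest in Bmpr1a at 1.02, which had 48 CpG in 300 bases. Id4 (0.988) and Smad6 (0.952) followed. Msx1 (0.794) and Msx2 (0.789) differed little from each other, as did Id2 (0.711) and Id3 (0.704). For Msx2 and Id3 the bases before the start are exon sequence. For Bmpr1a and Id2 the longest run of those 250 bases outside exons was 109 and 89 bases. Bmp4 stood lowest at 0.419 with 12 CpG, although its window was 64.0% G and C. The median of the 8 was 0.791, against 0.384 for all windows and 0.752 for protein-coding genes whose mean reached 10. In the plot of CpG ratios Bmp4 falls in a bar of 516 windows and Bmpr1a in one of 653. The other genes fall in bars of 808 to 1117, beside 1146 in the tallest bar. Highly and weakly expressed genes overlapped in this ratio, since Id4 and Msx1 lay above Id2, Id3 and Bmp4.

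**Figure D1:**
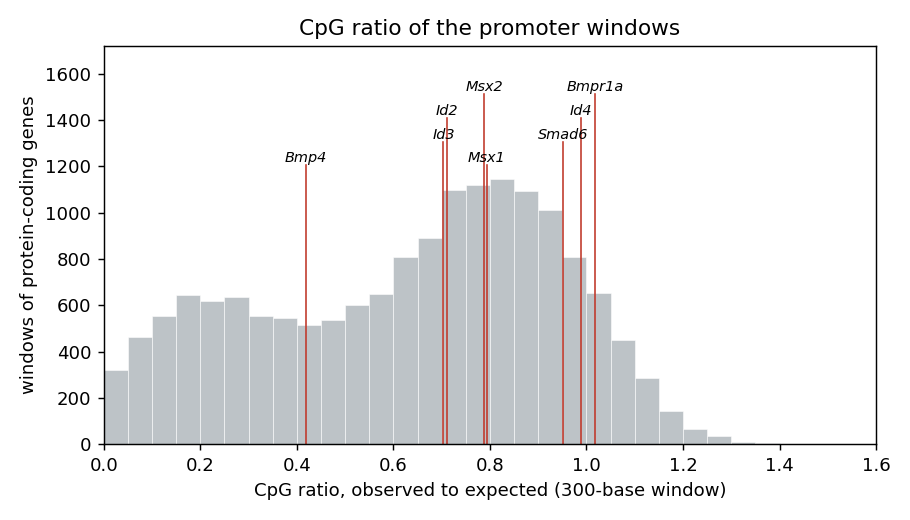
CpG ratio (observed to expected, x axis) of promoter windows of 300 bases. Bars count windows of protein-coding genes in the table (y axis) and red lines mark the 8 genes with a window. Bmp4 lies at 0.419 and the other 7 lie from 0.704 to 1.02.

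The ligand was the most abundant of the 10 genes. Bmp4 (ENSMUSG00000021835, chromosome 14, 46383520 to 46390669, minus strand) had an authors' mean of 1218 normalized counts with a counting SD of at most 11.8, from at least 10611 reads. This placed it at percentile 88.1 of the 16950 protein-coding genes. On the length-scaled level Bmp4 stood at 165 with a counting SD of at most 0.971% of the level, and at percentile 94.8 of protein-coding genes.

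Bmp4 made up most of the BMP ligand RNA. Of 14 ligand genes 11 were listed, and Bmp4 accounted for 88.9% of their summed length-scaled level (counting SD at most 0.250 percentage points). Bmp7 contributed 5.17% and Bmp8a 4.66%. Bmp2, the ligand closest to Bmp4 in sequence, had a mean of 4.26 and contributed 0.197%, so that the Bmp4 level was 453 times higher (95% counting interval 328 to 625). Over coding length this ratio was 276. The lowest of the ligands was Bmp3 at 0.106, which is a single read. Bmp5, Bmp10 and Gdf2 were not listed, so no level can be given for them. Whether counting used strand is not given in the sources used here, and without it reads from overlapping genes cannot be told apart. The antisense gene Gm15222 lies inside its span without sharing exon bases and had a mean of 2.55, and Gm15217 shares 89 exon bases at its 3′ end and had a mean of 0.915.

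**Figure D2:**
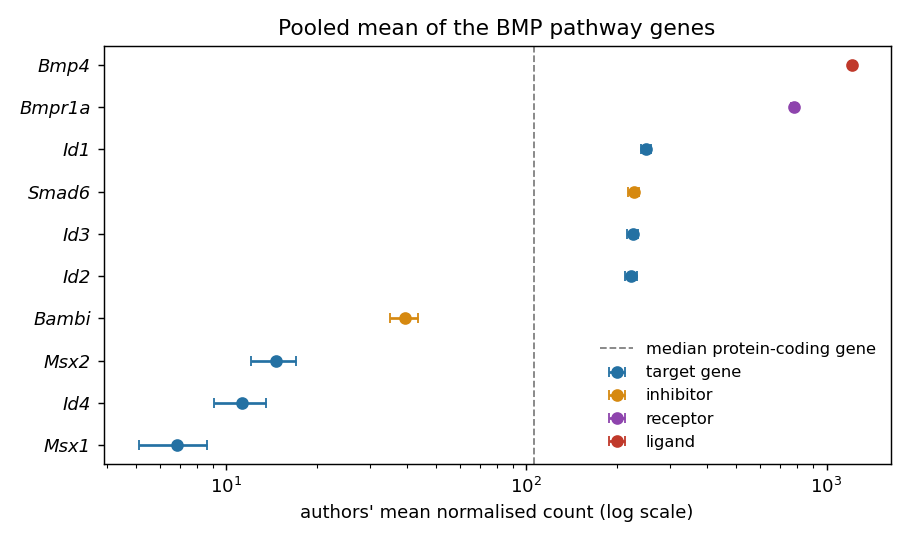
Authors' mean normalized count (x axis, log scale) of each of the 10 genes, colored by role. Bars span the 95% counting interval at the largest possible counting SD and the dashed line is the median protein-coding gene at 106. Bmp4, Bmpr1a, Id1, Smad6, Id3 and Id2 lie above the line, and Bambi, Msx2, Id4 and Msx1 below it.

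Among receptors, Bmpr1a (ENSMUSG00000021796, chromosome 14, 34410734 to 34503341, minus strand), which encodes the kinase ALK3, had a mean of 780 with a counting SD of at most 9.47. Its exons cover 6351 bases, the longest of the 10 genes, and its length-scaled level was 37.4 ± 0.454. Bmpr1a supplied 83.1% of the summed level of the type I receptors of the list (counting SD at most 0.485 percentage points). Acvrl1 followed with 12.7%, Acvr1 with 3.89% and Bmpr1b with 0.284%. Bmpr1b rested on 22 to 44 reads, and the level of Bmpr1a was 292 times higher (95% counting interval 192 to 445). Over the receptor and co-receptor list 9 of 10 genes had a mean of at least 10, against 66.3% of all genes and 73.2% of protein-coding genes. Eng, a co-receptor known from endothelium, was the highest at 1902, and the type II receptor gene Bmpr2 stood at 831. On the antisense strand of Bmpr1a, Gm17110 shares 290 of its exon bases, which is 4.57%, and reads there cannot be assigned without strand.

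Of the SMADs that carry the signal, Smad1 was the highest at a mean of 949 and Smad9 the lowest at 24.8. Per length Smad1 stood at 46.1 and Smad5 at 23.1, while the common partner Smad4 stood at 65.5. A mean of at least 100 was reached by 2 ligand genes, 7 receptor or co-receptor genes and 3 of these SMAD genes. The share over all genes was 44.6%, and 50.7% over protein-coding genes.

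The inhibitors among the 10 genes differed widely. Smad6 (ENSMUSG00000036867, chromosome 9, 63953076 to 64022059, minus strand) had a mean of 228 with a counting SD of at most 5.12. Bambi (ENSMUSG00000024232, chromosome 18, 3507957 to 3516404, plus strand) had a mean of 39.4 with a counting SD of at most 2.13. Per length Smad6 (21.7) was 9.16 times above Bambi (2.36, 95% counting interval of the ratio 8.17 to 10.3). Over coding length the ratio was 3.04. Smad6 lay at percentile 67.6 of protein-coding genes per length and Bambi at 35.0. The other inhibitory SMAD gene, Smad7, which also answers to Activin and TGF-β, was 7.09 times above Smad6 (interval 6.77 to 7.42, and 11.6 times over coding length), so that over exons Smad6 made up 12.4% of their sum.

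All 9 genes of the membrane and intracellular inhibitor list had a mean of at least 10, and 8 had a mean of at least 100. Bambi was the exception and the lowest, while Ski, a co-repressor of SMADs, was the highest at 3637. The list of secreted antagonists showed the opposite picture. Only 5 of its 13 genes had a mean of at least 10 and 1 reached 100, which was Twsg1 at 789. Nog, which encodes the BMP trap Noggin, had a mean of 1.63, Chrd a mean of 68.8, and Cer1, the lowest, a mean of 0.0771. For comparison, 66.3% of all genes and 73.2% of protein-coding genes had a mean of at least 10. At least 100 was reached by 44.6% and 50.7%. No test was made on these counts.

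**Figure D3:**
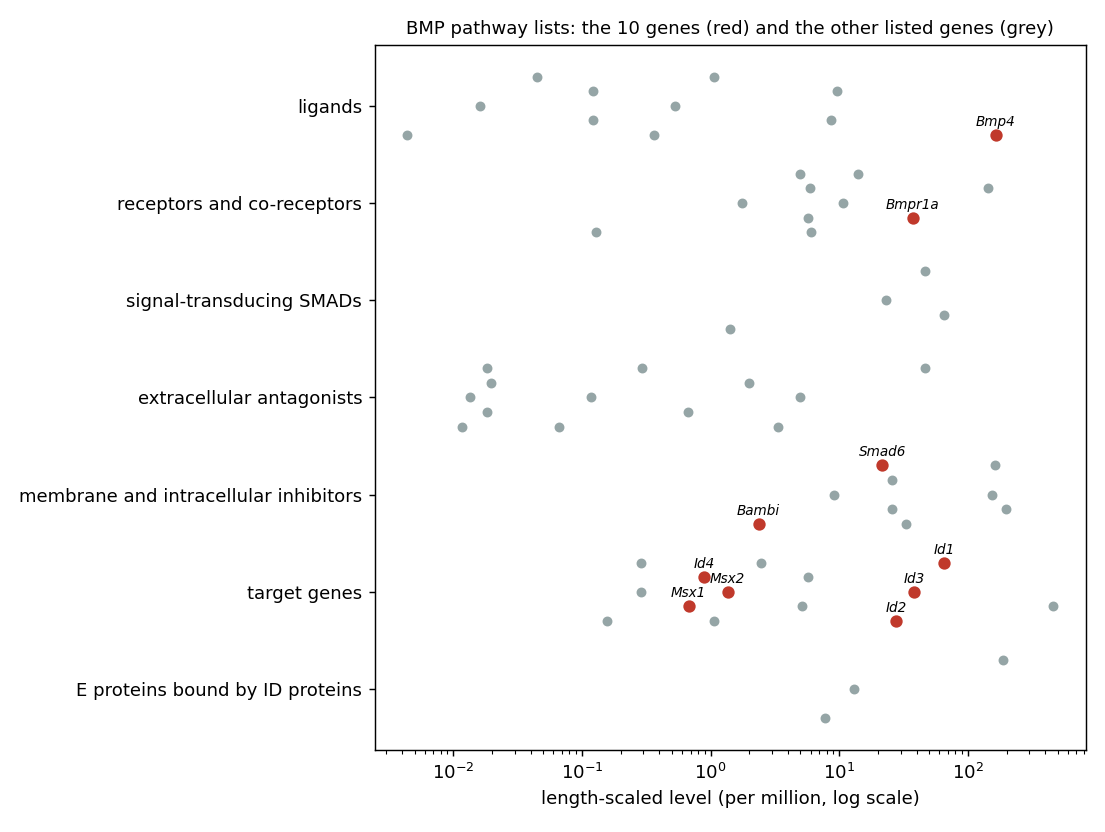
Length-scaled level (x axis, log scale) of every listed gene of the BMP pathway lists and of the E proteins (rows, jittered vertically for legibility). Red points are the 10 genes and grey points the other listed genes. Bmp4 at 165 lies far to the right of the other ligands, the highest of which stands at 9.58.

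Id1, Id2 and Id3 had similar means, and Id4 had a far lower one. Id1 (ENSMUSG00000042745, chromosome 2, 152736251 to 152737410, plus strand) had a mean of 250.5, Id3 (ENSMUSG00000007872, chromosome 4, 136143497 to 136145755, plus strand) of 226 and Id2 (ENSMUSG00000020644, chromosome 12, 25093799 to 25097140, minus strand) of 223. Counting SDs were at most 5.36, 5.09 and 5.06. Id3 and Id2 differed by 0.388 counting SDs of their difference and thus not beyond counting error. Id4 (ENSMUSG00000021379, chromosome 13, 48261228 to 48266026, plus strand) had a mean of 11.3 with a counting SD of at most 1.14, from at least 99 reads.

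How the Id genes are ordered depended on the length used. Over the union of exons Id1 stood at 65.7, Id3 at 38.4 and Id2 at 27.8, so that Id1 was 1.71 times above Id3. Exons of Id1 cover 1160 bases, those of Id3 1791 and those of Id2 2438. The longest annotated Id1 transcript is 1 exon as long as the whole gene. The Id1 length over exons and over the longest transcript is therefore its full span, with no intron taken out. Divided by coding length, Id3 (80.9) was instead the highest, with Id1 at 63.6 and Id2 at 61.3, and the ratio of Id1 to Id3 was 0.786. Id4 remained the lowest of the family under each length, at 0.894 over exons and 2.99 over coding length. Relative to it Id3 was 42.9 times higher over exons (95% counting interval 35.0 to 52.5) and 27.01 times higher over coding length. Within the family Id1 made up 49.5%, Id3 28.9%, Id2 20.96% and Id4 0.673% of the summed level over exons.

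The Id genes are paralogs, so it was asked whether reads could have been split between them. Coding sequences were 69.3% to 73.5% identical over aligned bases, and the longest identical stretch between any pair was 17 bases, between Id1 and Id4. Reads were 50 bases long. None of the 50-base stretches of Id1 or Id3 transcripts occurred in a transcript of another gene in GENCODE M21. For Id2 0.329% did, all of them in Gm6175. For Id4 2.08% did, mostly in Gm49291, a gene that overlaps it on the opposite strand and shares 171 of its exon bases. How many Id4 reads come from that strand was not tested.

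RNA of all 3 E protein genes, whose products are partners of ID proteins, was measured. Tcf3, which encodes E2A, had a mean of 2497, Tcf4 of 693 and Tcf12 of 671. Summed per length, the 4 Id genes came to 133 and the 3 E protein genes to 209, a ratio of 0.636. Tcf3 alone made up 90.0% of the E protein sum over exons. This share depends on length, since exons cover 4039 bases in Tcf3, 27382 in Tcf4 and 15529 in Tcf12. It was not computed over other lengths.

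**Figure D4:**
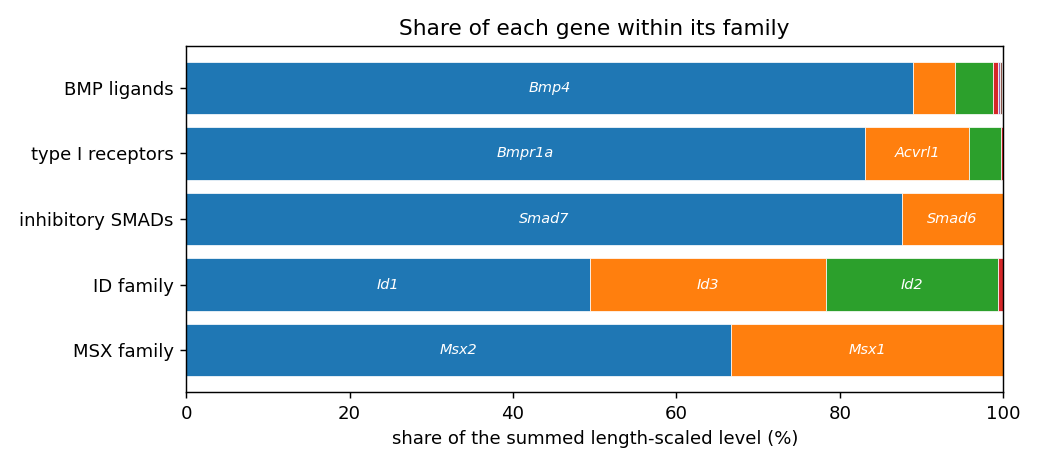
Share of each gene in the summed length-scaled level of its family (x axis, percent), 1 bar per family. Bmp4 makes up 88.9% of the ligands, Bmpr1a 83.1% of the type I receptors, Smad7 87.6% of the inhibitory SMADs, Id1 49.5% of the Id genes and Msx2 66.7% of the Msx genes.

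Msx1 and Msx2 encode homeodomain repressors that BMPs induce in neural crest, limb bud and other embryonic tissues. Both lay in the lower part of the table, Msx1 at percentile 24.0 and Msx2 at percentile 29.7 of protein-coding genes by mean. Msx2 (ENSMUSG00000021469, chromosome 13, 53466884 to 53473074, minus strand) had a mean of 14.6 with a counting SD of at most 1.29. Msx1 (ENSMUSG00000048450, chromosome 5, 37820485 to 37824583, minus strand) had a mean of 6.87 with a counting SD of at most 0.888, and rested on 60 to 121 reads in all libraries together. Per length Msx2 was 2.01 times above Msx1 (95% counting interval 1.47 to 2.73). Their coding sequences were 73.8% identical with a longest common stretch of 22 bases. No 50-base stretch of Msx1 occurred in another gene, and 0.465% of those of Msx2 did.

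The target list, which includes the Id and Msx genes, had means from 1.16 to 4125. The Id and Msx genes ran from 6.87 to 250.5. Of 14 target genes 10 (71.4%) had a mean of at least 10 and 5 (35.7%) reached 100. Over all genes these shares were 66.3% and 44.6%, and over protein-coding genes 73.2% and 50.7%. Dusp9, a phosphatase that acts on ERK and is a BMP target in mESCs, was the highest at 4125, or 461. Dlx5, a bone and limb regulator, was the lowest at 1.16. Id1, Id2 and Id3 came next after Dusp9. Gata2 stood at 102, Gata3 at 13.9 and Atoh8 at 2.39.

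Across all 10 genes the order per length over exons was Bmp4, Id1, Id3, Bmpr1a, Id2, Smad6, Bambi, Msx2, Id4 and Msx1. Neighbors Id3 and Bmpr1a differed by 1.01 counting SDs of their difference, not beyond counting error. Id4 and Msx1 differed by 1.74 at the largest possible counting SD. A smaller SD would make this value larger, so whether they differ beyond counting error was not settled. Id4 lay below Msx1 over the longest transcript and above Msx2 over coding length. As a ratio between neighbors, the widest gap over exons and over the longest transcript lay between Smad6 and Bambi. Over coding length the ratio of Id2 (61.3) to Smad6 (19.6) was slightly larger than that of Smad6 to Bambi (6.46). Above the gap over exons 6 genes stood at or over 21.7 and at or over percentile 67.6 of protein-coding genes per length, and below that gap 4 genes stood at 0.676 to 2.36 and at percentiles 24.6 to 35.0. The median of the 10 was 24.7, beside 7.46 for protein-coding genes, again per length. As the plot of levels by length shows, the same 6 genes stood above the other 4 under each length.

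**Figure D5:**
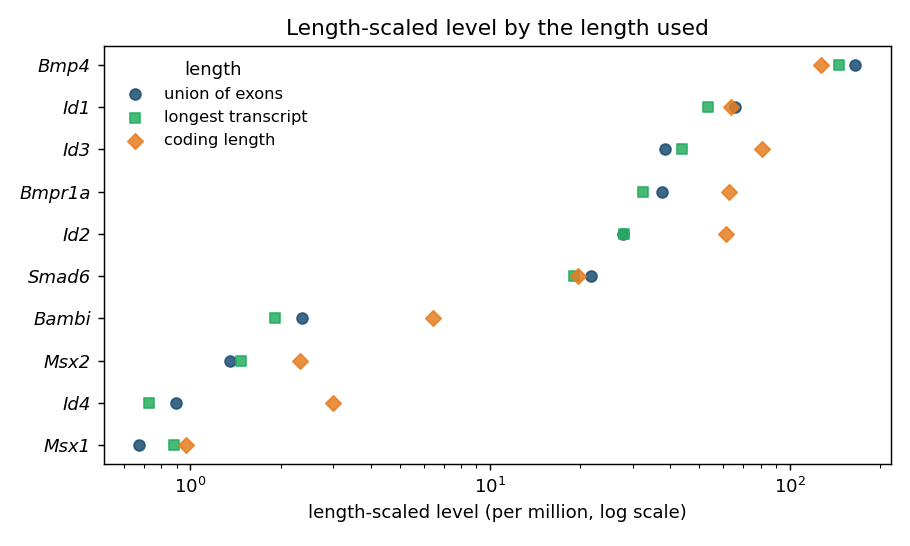
Length-scaled level (x axis, log scale) of the 10 genes, in the order given by the union of exons, with the level over the longest transcript and over the coding length beside it. Bmp4 is the highest under all 3 lengths, Id1 and Id3 change places over coding length, and 6 genes stay above the other 4.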

How the data were processed

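Ribosomal RNA was removed before library preparation. Single-end reads of 50 bases were aligned to GRCm38.p6 and counted per gene with STAR 2.5.3a, then normalized with DESeq2 1.20.0 by the authors. The deposited table gives the authors' mean normalized signal per gene (counts divided by size factors, averaged over their fit). Another 5 columns hold the authors' fold change between genotypes with its error, statistic and p-values. They report the authors' findings and were not used.

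Means were divided by exon, transcript or coding length (GENCODE M21, GRCm38, which held 19351 of the 19429 identifiers; start and end were the same for 17554 genes and 9 of the 10, Bambi differing by 34 bases) in Python 3.11.15 with pandas 2.3.3. Single-read steps needed at least 30 genes and were tested on simulated data, where steps of nearly equal depth can merge. The counting SD is at most the square root of the mean times the largest value of 1 read. Intervals of 95% cover counting error only. Coding sequences were aligned with Biopython 1.88. The genes and lists were chosen with earlier results of these data known. Named were all 10 genes and the highest and lowest gene of each pathway list, and any other named gene was chosen after its values were seen. Marker lists of 5 cell types were given by range. No test between genotypes was made.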

Additional observations from a re-analysis of the deposited data

How the results depend on the processing

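All values are pooled means without replicates, so no library could be left out. No paired analysis was possible because the table used has 1 mean per gene and no values per library. The longer promoter window and the protein alignment were not run, since no genome or protein sequence was used here. Under 3 alternatives (longest transcript, coding length, and protein-coding genes alone in the sum) 6 of the 10 genes remained above the median protein-coding gene. With the longest transcript in place of exons the ratios per length were 1.22 for Id1 to Id3, 1.91 for Id1 to Id2, 1.56 for Id3 to Id2, 60.1 for Id3 to Id4 and 1.35 for Id3 to Bmpr1a, and the share of Bmpr1a among type I receptors was 80.9%. With coding length these ratios were 0.786 (the order of Id1 and Id3 turned), 1.04, 1.32, 27.01 and 1.29, Smad7 to Smad6 was 11.6, Smad6 to Bambi 3.04 and Bmp4 to Bmp2 276, and the shares of Bmp4 and Bmpr1a were 85.1% and 87.0%. The ratio of Id genes to E proteins was 0.492 and 0.848. These changes follow from the lengths alone. Msx2 to Msx1 stayed within counting error. Single-read steps numbered 12 with 20 genes needed and 5 with 50. Of the 61 BMP pathway genes 41 (67.2%) had a mean of at least 10 and 26 (42.6%) of at least 100. Over all genes these shares were 66.3% and 44.6%, and over protein-coding genes 73.2% and 50.7%. The median CpG ratio of the windows compared was 0.384 over all, 0.690 over protein-coding genes and 0.752 over those with a mean of at least 10, a choice made after seeing the data. Shared stretches moved by less than 1 percentage point with 40 bases. Counting precision limits Msx1, Id4 and Msx2 most, with SDs of up to 12.9%, 10.1% and 8.87% of the mean.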
